A study of Homo sapiens with 6 samples.

Results

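The Notch pathway was examined in LNCaP cells and in an enzalutamide-resistant derivative through 10 genes, namely the receptors NOTCH1, NOTCH2 and NOTCH3, the ligands JAG1, JAG2, DLL1 and DLL3, and the HES and HEY family genes HES1, HES6 and HEY1. Members were chosen by gene name, and all 10 were found among the 35554 genes of the count table. LNCaP is an established human prostate cancer line that was grown from a metastasis and depends on androgens. Enzalutamide is an antiandrogen used in advanced prostate cancer. Parental LNCaP (n = 3) were the source of the resistant cells, LNCaP-enzaR (n = 3), which were derived by continuous culture in enzalutamide and then held on a lower concentration of it. The flasks were harvested before confluence, and whether the medium of either line contained the drug at that point is not given. LNCaP-enzaR is a single derivative line, so the 3 libraries of a group are flasks of 1 line, and p-values measure the spread between flasks and not between independent derivations.

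Notch receptors are single-pass membrane proteins that are activated by ligands of the Jagged and Delta-like families on a neighboring cell. Ligand binding exposes the receptor to ADAM proteases and then to γ-secretase, which releases the intracellular domain. That domain enters the nucleus, joins the DNA-binding protein RBPJ and a Mastermind coactivator, and switches on target genes, of which the HES and HEY transcriptional repressors are the best known. In the prostate, Notch signaling is known for its part in the balance between basal and luminal epithelial cells. Transcript levels of pathway members do not measure cleavage of the receptors.

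Libraries held 77759122 to 98616465 counts. Levels are given as CPM, the counts of a gene scaled to a fixed library size after TMM normalization, and fold changes are log2 of the LNCaP-enzaR level relative to the parental level, each with its standard error (SE) from the edgeR quasi-likelihood fit. A gene was past the threshold where its Benjamini-Hochberg adjusted p did not exceed 0.05 and the lines differed by 1.5-fold or more. The 6 luminal markers KLK3, HOXB13, FOLH1, TMPRSS2, KRT8 and KRT18 were all expressed, at a summed 3367 to 3442 CPM in parental and 2290 to 2595 CPM in LNCaP-enzaR libraries. The sum joins moves in both directions. KLK3 (1190 to 141 CPM, log2 fold change −3.08), HOXB13 (−0.84) and FOLH1 (−0.63) were lower past the threshold. KRT8 was higher past it (397 to 886 CPM, 1.16), while KRT18 (0.50) and TMPRSS2 (0.16) were short of the fold limit. The basal markers KRT5 and TP63 had 0 counts in every parental library and at most 2 and 1 in LNCaP-enzaR. KRT14, a further basal marker, had 84 to 134 counts per parental and 43 to 67 per LNCaP-enzaR library, lower past the threshold (log2 fold change −1.18). The 4 basal markers together summed to 44.1 to 48.3 CPM in parental and 11.2 to 12.7 CPM in LNCaP-enzaR, nearly all of it ITGA6. Leukocyte markers summed to at most 0.209 CPM, and endothelial markers to 5.57 to 6.10 CPM in parental and 3.94 to 4.35 CPM in LNCaP-enzaR. Fibroblast markers summed to 14.1 to 17.3 CPM in parental and 6.73 to 7.16 CPM in LNCaP-enzaR, mostly COL1A1. This sum, too, joins moves in both directions. COL1A1 was lower past the threshold (13.4 to 4.29 CPM, log2 fold change −1.64), and COL3A1 (−0.38) was not past it. LUM was higher past the threshold at a low level (0.425 to 1.44 CPM, 1.78). Mitochondrial transcripts made up 6.72% to 7.06% of parental and 14.7% to 15.5% of LNCaP-enzaR counts, and without these genes in the fit the calls of all 10 Notch members were the same. In such bulk RNA, fewer cells that express a gene and less RNA per cell cannot be told apart.

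Of the 10 Notch genes, 6 were past the threshold. NOTCH3, DLL1 and HES1 rose in LNCaP-enzaR, and JAG1, HES6 and HEY1 fell. The ligands and the HES and HEY genes each had calls in both directions, the receptors a single higher one, and the median log2 fold change of the 10 genes was −0.05, beside 0.01 over all 19711 genes tested. All 10 passed the filter on low counts. Across the whole table, 42.7% of genes were past the threshold, 23.3% higher and 19.5% lower, and the 6 of 10 is read against that share. CPM did not overlap between the groups for 10 of 10 members, beside 70.6% of all genes tested. Irrespective of fold, all 10 members had an adjusted p of at most 0.05, as had 66.3% of all genes tested.

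**Figure D1:**
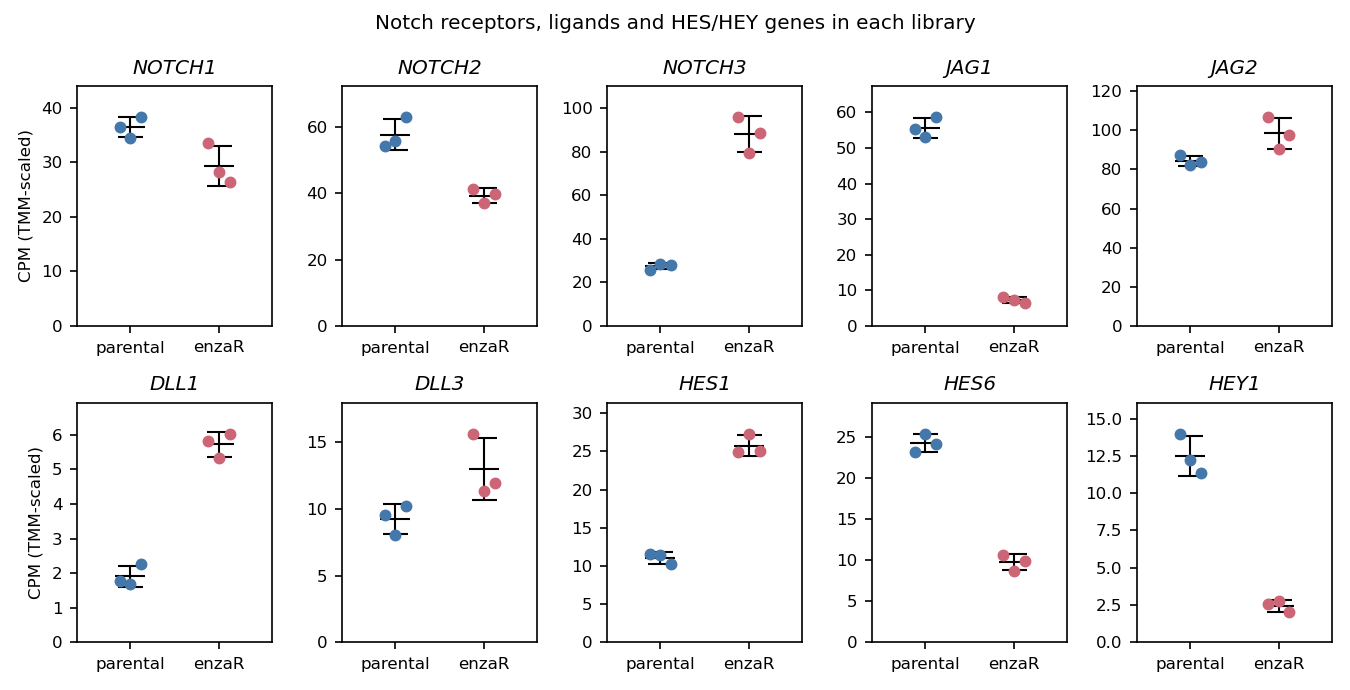
Each panel plots the CPM of 1 gene, on its own linear axis from 0, in the 3 parental (blue) and 3 LNCaP-enzaR (red) libraries, with black bars for mean ± SD. The groups do not overlap in any of the 10 panels, and the separation is widest for JAG1, HEY1, NOTCH3 and DLL1 and narrowest for JAG2, NOTCH1 and DLL3.

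Of the receptors, only NOTCH3 passed the threshold. NOTCH3 (ENSG00000074181.9, chromosome 19, 15159038 to 15200995, GRCh38) encodes a receptor best known from vascular smooth muscle and is itself a target of Notch signaling. Its level was 25.7, 28.4 and 27.8 CPM in parental libraries 1 to 3 and 95.8, 79.5 and 88.7 CPM in LNCaP-enzaR libraries 1 to 3. Every LNCaP-enzaR library thus held more than every parental library, with a gap wider than the whole range of either group. The means were 27.3 ± 1.38 and 88.0 ± 8.17 CPM (SD, n = 3 each), which is a log2 fold change of 1.69 with an SE of 0.0753 (edgeR, adjusted p = 1.00e-10), or 3.22-fold.

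NOTCH2 (ENSG00000134250.20, chromosome 1, 119911553 to 120100779) and NOTCH1 (ENSG00000148400.13, chromosome 9, 136494433 to 136546048) were lower in LNCaP-enzaR, each by less than 1.5-fold. NOTCH2 measured 54.3, 55.6 and 62.8 CPM in parental and 41.3, 36.9 and 39.6 CPM in LNCaP-enzaR libraries. Parental replicate 3 was the highest, and the groups did not overlap. The log2 fold change of −0.55 with an SE of 0.0714 (edgeR, adjusted p = 8.73e-06) was 1.47-fold, just short of the limit, which it passed when libraries were scaled by their totals (−0.59) and when parental replicate 1 was left out (−0.60). NOTCH2 has partial copies, the NOTCH2NL genes, with which reads can be shared. Their counts were small beside the 3260 to 5059 of NOTCH2, with 62 to 101 per library for NOTCH2NLC and at most 17 for NOTCH2NLA, NOTCH2NLB and NOTCH2NLR. Whether reads that match both NOTCH2 and a copy were counted is not given, so these counts cannot show how many reads were shared. NOTCH1, the receptor with the widest known range of roles, measured 36.5, 34.6 and 38.3 CPM in parental and 33.5, 28.2 and 26.4 CPM in LNCaP-enzaR libraries. LNCaP-enzaR replicate 1 lay only just under the lowest parental library. On the log2 scale NOTCH1 differed by −0.31 with an SE of 0.0854 (edgeR, adjusted p = 0.00508). NOTCH4, the remaining receptor, had 34 to 70 counts per library and did not pass the threshold (log2 fold change −0.17, adjusted p = 0.624), with a value of 0.0077 when parental replicate 1 was left out.

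To compare levels between receptors, CPM were divided by the length of all exons of a gene in kilobases (kb). Per kb, NOTCH2 made up 36.9% ± 1.19 of the summed receptor level in parental cells, NOTCH1 31.2% ± 1.19, NOTCH3 31.2% ± 1.5 and NOTCH4 0.677% ± 0.208 (SD, n = 3). In LNCaP-enzaR, NOTCH3 made up 66.3% ± 1.21, NOTCH2 16.7% ± 0.555, NOTCH1 16.6% ± 1.33 and NOTCH4 0.396% ± 0.0388. The shares depend on the length used. With the length of the canonical transcript, the parental shares were 41.7% for NOTCH2, 31.5% for NOTCH1 and 26.0% for NOTCH3, and that of NOTCH3 in LNCaP-enzaR was 60.6%. The NOTCH2 share was 36.2% to 38.3% in the parental and 16.0% to 17.0% in the LNCaP-enzaR libraries. The difference of −20.2 percentage points reached the smallest p that 3 against 3 libraries allow (2-sided exact permutation test, p = 0.1). The summed receptor level was 8.98 to 9.81 CPM per kb in parental and 12.96 to 15.4 CPM per kb in LNCaP-enzaR libraries.

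Among the ligands, JAG1 fell and DLL1 rose. JAG1 (ENSG00000101384.12, chromosome 20, 10637684 to 10673999) encodes Jagged1, a ligand that is widely expressed in epithelia and their tumors. It measured 55.4, 53.0 and 58.6 CPM in parental libraries and 8.04, 7.30 and 6.57 CPM in LNCaP-enzaR libraries. The lowest parental library exceeded the highest LNCaP-enzaR library several times over. JAG1 thus fell by 2.93 on the log2 scale with an SE of 0.0840 (edgeR, adjusted p = 1.25e-12), or 7.63-fold, the largest of the 10 genes, and it stayed between −3.00 and −2.83 over the alternative analyses. DLL1 (ENSG00000198719.9, chromosome 6, 170282206 to 170306565), a Delta-like ligand that activates Notch in neighboring cells, had the lowest level per length of the 10 genes in parental cells. It measured 1.78, 1.69 and 2.25 CPM in parental and 5.83, 5.32 and 6.03 CPM in LNCaP-enzaR libraries, so each LNCaP-enzaR library was above each parental library. This was a log2 fold change of 1.59 with an SE of 0.136 (edgeR, adjusted p = 1.13e-07), or 3.01-fold. Exons of another gene, FAM120B, cover 9.69% of the exonic bases of DLL1, and since the strand setting of the counting is not given, reads there could belong to either gene, as could those over the 3.29% of JAG1 and 7.33% of JAG2 exonic bases that other genes cover.

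JAG2 and DLL3 did not reach the fold limit. JAG2 (ENSG00000184916.9, chromosome 14, 105140982 to 105168824), the other Jagged ligand, measured 87.3, 82.4 and 83.8 CPM in parental and 107, 90.7 and 97.8 CPM in LNCaP-enzaR libraries. The groups were separated by less than the range within LNCaP-enzaR. The log2 fold change was 0.22 with an SE of 0.0650 (edgeR, adjusted p = 0.00838), or 1.16-fold, and the adjusted p was 0.0513 without parental replicate 2. DLL3 (ENSG00000090932.11, chromosome 19, 39498895 to 39508481) is an atypical ligand that does not activate Notch in neighboring cells and is a surface antigen of neuroendocrine cancers. It measured 9.56, 8.04 and 10.2 CPM in parental and 15.6, 11.4 and 12.0 CPM in LNCaP-enzaR libraries. LNCaP-enzaR replicate 1 stood above its group, and the groups did not overlap. The log2 fold change of 0.49 with an SE of 0.123 (edgeR, adjusted p = 0.00289) was 1.40-fold, with 0.34 when LNCaP-enzaR replicate 1 was left out and 0.59, past the limit, with upper-quartile scaling. INSM1, a neuroendocrine transcription factor, had 0 counts in every parental library and at most 3 in LNCaP-enzaR. NCAM1 was higher past the threshold at a low level (0.292 to 0.765 CPM, log2 fold change 1.39). SYP was higher but short of the fold limit (0.51), and CHGA, with 3 to 10 counts per library, was not tested. The 4 neuroendocrine markers CHGA, SYP, INSM1 and NCAM1 summed to 2.29 to 2.59 CPM in parental and 3.42 to 4.09 CPM in LNCaP-enzaR, and their part in the DLL3 values was not tested.

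Per kb of exon, the Jagged ligands together made up 82.5% ± 1.49 of the level summed over JAG1, JAG2, DLL1, DLL3 and DLL4 in the parental line (SD, n = 3) against 71.4% ± 1.28 in LNCaP-enzaR. The libraries ranged from 81.0% to 84.0% and from 69.9% to 72.2%, a difference of −11.1 percentage points (2-sided exact permutation test, p = 0.1, the smallest possible). JAG1 alone went from 25.7% ± 0.659 to 3.47% ± 0.301 and JAG2 from 56.8% ± 1.85 to 67.9% ± 1.29. DLL3 went from 15.2% ± 1.21 to 21.8% ± 1.76 and DLL1 from 2.14% ± 0.278 to 6.64% ± 0.520. The summed ligand level overlapped between the lines, at 22.1 to 23.9 CPM per kb in parental and 20.7 to 25.1 CPM per kb in LNCaP-enzaR libraries. With canonical lengths the sums also overlapped, but CPM summed without division by length did not, at 145 to 155 in parental and 115 to 136 in LNCaP-enzaR libraries, so that a difference in the sum depends on the length used. DLL4 had 9 to 28 counts per library and did not pass the threshold (log2 fold change −0.54, edgeR adjusted p = 0.385).

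**Figure D2:**
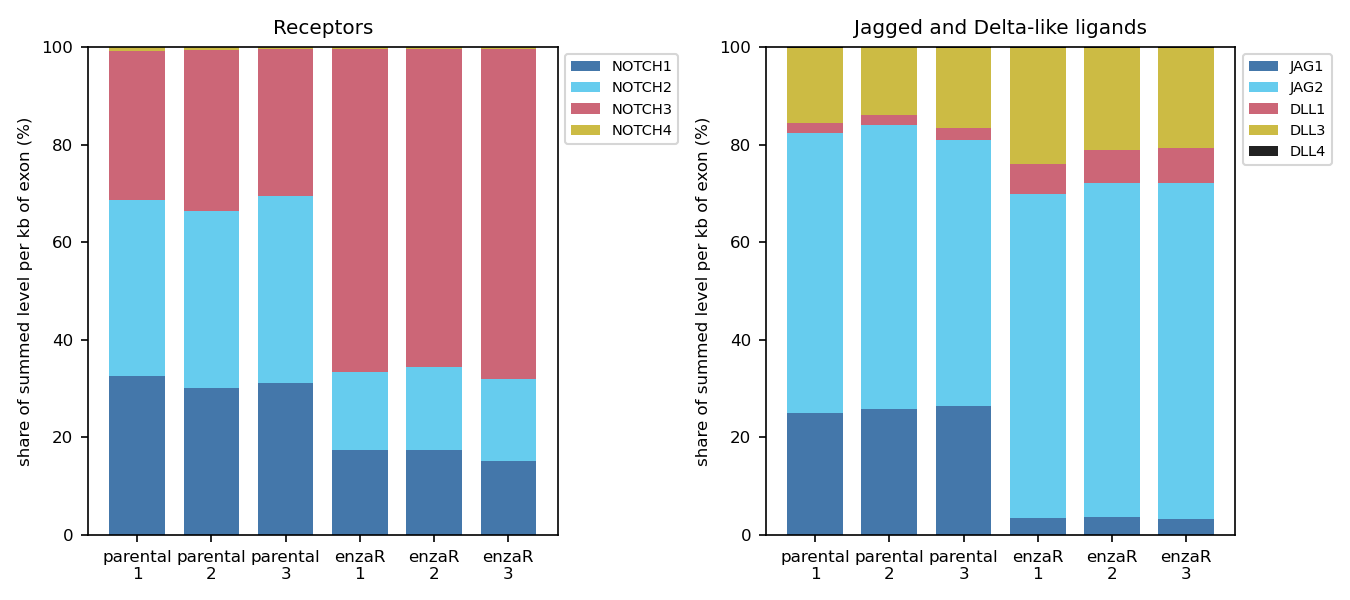
Stacked bars show, for each library, the share in percent of each receptor (left) and each Jagged or Delta-like ligand (right) in the summed level per kb of exon. NOTCH3 takes 30.1% to 32.9% of the receptor bar in parental and 65.2% to 67.6% in LNCaP-enzaR libraries, and JAG1 shrinks from 25.0% to 26.3% of the ligand bar to 3.19% to 3.79%.

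The 3 HES and HEY genes were all past the threshold, 1 higher and 2 lower. HES1 (ENSG00000114315.4, chromosome 3, 194136148 to 194138732) encodes a repressor that is the most widely used readout of Notch signaling and that can repress its own gene. It measured 11.5, 11.4 and 10.2 CPM in parental and 24.9, 27.3 and 25.1 CPM in LNCaP-enzaR libraries. Each LNCaP-enzaR library held over 2 times the level of any parental library. HES1 rose by 1.22 on the log2 scale with an SE of 0.0782 (edgeR, adjusted p = 4.95e-09), or 2.33-fold.

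HES6 (ENSG00000144485.11, chromosome 2, 238238267 to 238240662) belongs to the same family by sequence but is known to antagonize HES1 and to favor neuronal differentiation. It measured 23.1, 25.3 and 24.1 CPM in parental and 10.6, 8.67 and 9.90 CPM in LNCaP-enzaR libraries, with no overlap. HES6 fell by 1.32 on the log2 scale with an SE of 0.0854 (edgeR, adjusted p = 5.66e-09), or 2.49-fold. Within a library, where scaling between libraries plays no part, the log2 ratio of HES6 to HES1 per kb was 1.08, 1.23 and 1.31 in parental and −1.16, −1.58 and −1.27 in LNCaP-enzaR libraries. HES6 was thus the more abundant of the pair in each parental library and HES1 in each LNCaP-enzaR library. The difference of −2.54 had the smallest p that the design allows (2-sided exact permutation test, p = 0.1).

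HES1 and HES4 are shown by sequence because both hold the core of the RBPJ motif, TGGGAA, before their start and their transcripts moved in opposite directions. The pair was thus picked with its values in view, and a part of these sites in the transcript levels was not tested. HES4, a further HES repressor and not one of the 10 genes, measured 37.7, 40.9 and 37.7 CPM in parental and 11.5, 9.10 and 8.98 CPM in LNCaP-enzaR libraries (log2 fold change −1.98 with an SE of 0.0941, edgeR adjusted p = 2.03e-10). The sequences are those of RefSeq on GRCh38.p14, written 5′ to 3′ on the strand of the gene, with the RBPJ core TGGGAA and the N-box CACNAG, to which HES proteins are known to bind, in capitals wherever they occur on either strand. The first covers the 250 bases before the RefSeq start of HES1 (chr3:194135898-194136147, plus strand), and the second the bases from 90 to 61 before that of HES4 (chr1:1000158-1000187, minus strand), a start that lies 75 bases inside the gene as the count table bounds it.
HES1: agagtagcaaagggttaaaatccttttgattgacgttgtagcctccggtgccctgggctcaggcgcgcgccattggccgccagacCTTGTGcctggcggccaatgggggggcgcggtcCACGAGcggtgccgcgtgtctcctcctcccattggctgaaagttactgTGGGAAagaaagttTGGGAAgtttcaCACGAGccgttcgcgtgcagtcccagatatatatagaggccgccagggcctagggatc
HES4: ggctggggcgagtgTGGGAAagaatgcgga

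HES1 held 2 RBPJ cores, whose first bases lie 84 and 70 bases before the start, and 3 N-boxes, at 165 (opposite strand), 132 and 58 bases. HES4 held 1 core, 76 bases before its start, and no N-box. The longest run of bases that both windows share is 12 bases long, tgTGGGAAagaa, and includes the core. At least 1 RBPJ core was present in 20.8% of the 35116 RefSeq promoters searched over the same 250 bases, at least 2 in 2.90%, and at least 1 N-box in 32.0%. Among the 7 members with an entry in that table, HES1 alone held the core, and HES1 and NOTCH3 held an N-box. DLL1, DLL3 and HEY1 were not searched. Only exact matches to the letters were searched, so variant RBPJ sites in these windows are not marked. Such matches are letters in a window of this length and not evidence of binding.

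The remaining HES and HEY genes were mostly low. HES2 had 33 to 93 counts per library (log2 fold change −0.64, edgeR adjusted p = 0.0712), and without parental replicate 3 it was past the threshold (−0.79, adjusted p = 0.0453). HES5, the other classical Notch target of this family, had 0, 0 and 4 counts in parental and 2, 11 and 15 counts in LNCaP-enzaR libraries and did not pass the filter with all 6 libraries, although it passed the filter and the threshold without parental replicate 3 and without LNCaP-enzaR replicate 1. HES7 had 3 to 14 counts and did not pass it either, and HEY2 and HEYL were not analysed here. NRARP, a direct Notch target that feeds back on the activation complex, fell from 43.9 ± 1.78 to 25.9 ± 0.548 CPM (SD, n = 3 each), or by 0.76 on the log2 scale with an SE of 0.0632 (edgeR, adjusted p = 8.75e-08).

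HEY1 (ENSG00000164683.18, chromosome 8, 79762371 to 79767857) encodes a repressor of the HEY family that is a Notch target. It measured 13.98, 12.2 and 11.4 CPM in parental and 2.56, 2.79 and 2.01 CPM in LNCaP-enzaR libraries. All 3 parental libraries lay several times above all 3 LNCaP-enzaR libraries. HEY1 fell by 2.36 on the log2 scale with an SE of 0.129 (edgeR, adjusted p = 8.60e-10), or 5.12-fold.

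**Figure D3:**
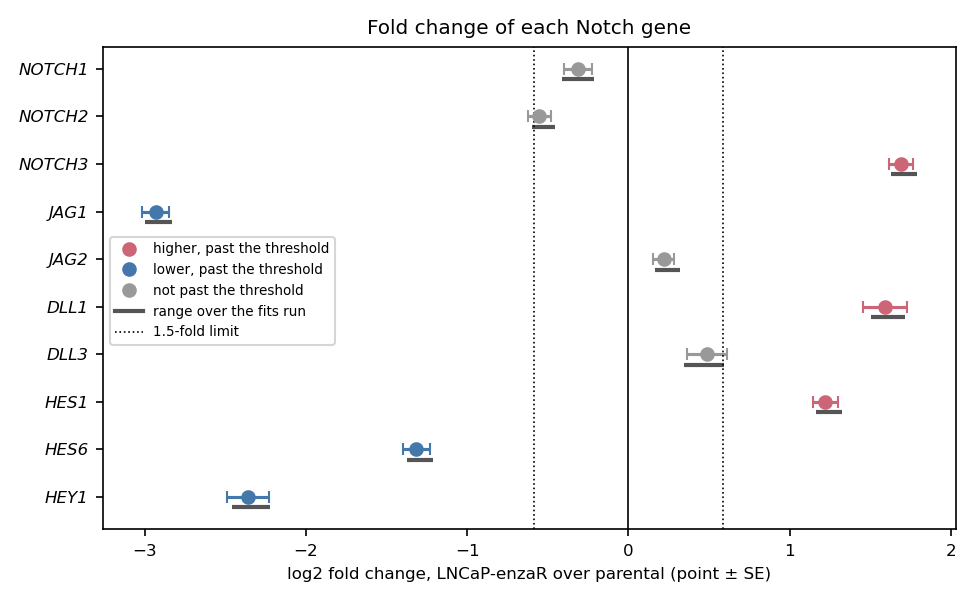
Points give the log2 fold change of each of the 10 genes with its SE, red where higher and blue where lower past the threshold and gray otherwise, the dark bar under each point spans its value over all 16 fits, and dotted lines mark 1.5-fold. JAG1 (−2.93) and NOTCH3 (1.69) are the extremes, and no bar crosses 0.

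Ordered by mean level per kb of exon, parental cells ran from JAG2 (13.2 ± 0.397 CPM per kb) and HES6 (12.4 ± 0.567) through JAG1 (5.99 ± 0.304) and HES1 (5.37 ± 0.357) to DLL3 (3.54 ± 0.426), NOTCH2 (3.44 ± 0.274), NOTCH1 (2.91 ± 0.148), NOTCH3 (2.90 ± 0.146), HEY1 (2.28 ± 0.244) and DLL1 (0.50 ± 0.0788). Libraries of neighbors in this order overlapped for JAG2 and HES6, for DLL3 and NOTCH2, and for NOTCH1 and NOTCH3. LNCaP-enzaR ran from JAG2 (15.4 ± 1.25), HES1 (12.5 ± 0.649) and NOTCH3 (9.35 ± 0.868) through HES6 (4.97 ± 0.495) and DLL3 (4.97 ± 0.881) to NOTCH2 (2.34 ± 0.131), NOTCH1 (2.34 ± 0.297), DLL1 (1.5 ± 0.0952), JAG1 (0.786 ± 0.0792) and HEY1 (0.447 ± 0.0732). Overlap was seen there for HES6 with DLL3 and for NOTCH2 with NOTCH1. JAG2 was thus at the head of both orders, while JAG1 went from the third to the ninth place and NOTCH3 from the eighth to the third. The order depends on the length used, since the exons of HEY1 annotated over all transcripts cover 5.49 kb against 2.20 kb in its canonical transcript. With canonical lengths HES6 (17.7 CPM per kb) was above JAG2 (14.6) in parental cells. HEY1 (5.70) was then at place 5 rather than 9 in these cells, with libraries that overlapped those of NOTCH2. NOTCH3 (3.15) was at place 9 rather than 8.

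The rest of the pathway was described through 8 lists with 84 genes, of which 69 were tested and 30 were past the threshold, 11 higher and 19 lower, with a median log2 fold change of −0.23. That is a share close to the 42.7% of all genes, against which the count of each list is read. In the RBPJ activation complex, 1 of 7 genes was past the threshold, MAML2, a Mastermind coactivator at low level (0.881 ± 0.252 to 0.367 ± 0.12 CPM, SD, n = 3 each, log2 fold change −1.25), with 2 of 7 in several alternative analyses. RBPJ itself measured 126 ± 2.89 and 107 ± 11.8 CPM (log2 fold change −0.23, edgeR adjusted p = 0.0117), short of the fold limit. In the proteolysis list, 3 of 9 were past the threshold. APH1B, a γ-secretase subunit, rose from 18.5 ± 1.33 to 32.7 ± 1.77 CPM (log2 fold change 0.82), FURIN, the convertase that cleaves the receptor precursor, fell from 86.3 ± 3.79 to 53.2 ± 5.47 CPM (−0.70), and PSEN2, a γ-secretase subunit, was higher (0.67), though short of the limit without parental replicate 3 (0.57) and with 38.7% of its exonic bases covered by another gene. Of the glycosylation genes, 1 of 7 tested was past the threshold, POGLUT2, an O-glucosyltransferase that acts on EGF repeats (log2 fold change −1.03).

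Ligand and receptor trafficking and turnover had 6 of 13 tested genes past the threshold, 5 higher and 1 lower. Beside this, 42.7% of all genes tested were past it, 23.3% higher and 19.5% lower. DTX4, a Deltex family ubiquitin ligase, rose from 1.62 ± 0.145 to 8.38 ± 0.414 CPM (log2 fold change 2.37 with an SE of 0.117, edgeR adjusted p = 2.93e-10), and AAK1, a kinase of endocytosis, from 65.5 ± 2.15 to 171 ± 7.18 CPM (1.38, SE 0.0572, adjusted p = 4.53e-11). Of the corepressors, 7 of 15 were past the threshold, 3 higher and 4 lower, which is likewise close to the share over all genes. TLE1, a Groucho family corepressor that HES proteins recruit, rose from 48.4 ± 1.35 to 127 ± 4.40 CPM (log2 fold change 1.39), whereas HDAC2, a histone deacetylase, fell from 244 ± 5.39 to 126 ± 4.66 CPM (−0.95). Among the other receptors and ligands, 1 of 4 tested was past the threshold, the atypical ligand DNER, at 2 to 8 counts per parental and 113 to 123 counts per LNCaP-enzaR library (log2 fold change 4.21).

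The lists of other targets and of bHLH partners held lower calls and no higher ones, where 19.5% of all genes tested were lower and 42.7% were past the threshold either way. In the list of other HES, HEY and Notch targets, 3 of 5 tested fell, with a median log2 fold change of −0.76 over the 5. Those that fell were HES4, NRARP and BHLHE40. The last is a clock and hypoxia repressor and not a HES or HEY gene (27.9 ± 1.06 to 9.77 ± 0.718 CPM, log2 fold change −1.52). An antisense gene shares 12.8% of its exonic bases. BHLHE41, likewise not a HES or HEY gene, was among the 5 and was not past the threshold (0.11). Without parental replicate 3, 5 genes were past the threshold, with HES2 added among the lower and HES5 among the higher ones. Of the proneural bHLH factors and their partners, 8 of 9 tested fell, with a median of −1.04. These were not mainly proneural factors, since the list's ID genes, which bind and inactivate bHLH proteins, and the E proteins TCF3 and TCF12, the general bHLH partners, made up 6 of the 8. ATOH8 fell from 15.9 ± 1.98 to 1.38 ± 0.261 CPM (log2 fold change −3.53 with an SE of 0.143, edgeR adjusted p = 3.64e-11) and ID4 from 9.32 ± 0.768 to 1.31 ± 0.370 CPM (−2.82, SE 0.164, adjusted p = 1.63e-09). ATOH1 had 11 to 30 counts per parental library and 0 in LNCaP-enzaR, at least 6.99-fold lower against a floor of 3 counts per library.

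**Figure D4:**
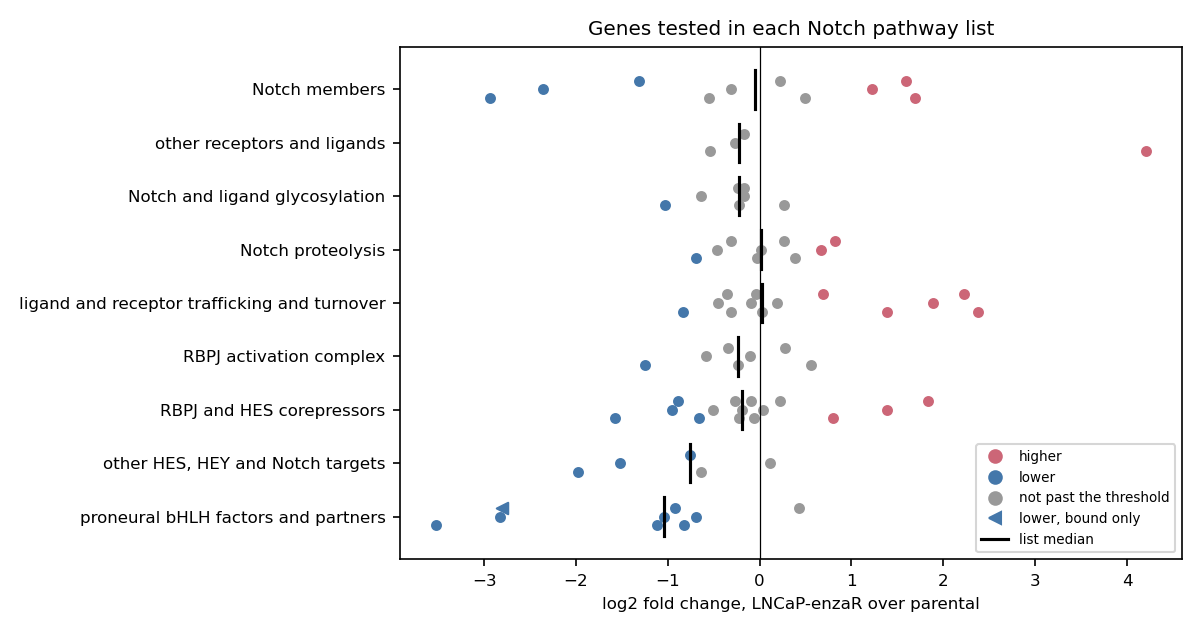
Each point is the log2 fold change of 1 tested gene in the list named at the left, red where higher and blue where lower past the threshold, with a triangle for ATOH1, of which only a bound is known, and a black line at the list median. Calls go both ways among the Notch members and in the proteolysis, trafficking and corepressor lists, and the lowest medians are those of the other targets (−0.76) and the bHLH list (−1.04).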

How the data were processed

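Per the labels, RNA was sequenced from 3 flasks of parental LNCaP and 3 of LNCaP-enzaR. Per the study's methods, the authors made TruSeq mRNA libraries, trimmed paired-end reads with Cutadapt, aligned them with STAR to GRCh38 under the GENCODE annotation, and assigned reads to genes by featureCounts. The deposited values are raw counts per gene, not normalized. The strand setting and the handling of multi-mapping reads are not given in the sources used here. Groups came from the sample titles.

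Counts were fitted with edgeR 4.0.16 (R 4.3.3) over all genes kept by filterByExpr (19711 of 35554, with 99.96% of counts), with TMM scaling, robust quasi-likelihood F-tests and Benjamini-Hochberg adjustment over all genes tested. The limits, 0.05 on the adjusted p and 1.5-fold, are those of the study's methods, which name DESeq2; that test (version 1.42.0) was an alternative. The edgeR fit was tested on simulated data. Exon lengths and overlaps came from GENCODE v44, in which all 10 members had the same coordinates as in the table. Shares and ratios were compared by exact permutation over libraries.

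The members and lists were chosen with earlier results of these data known, so they are described by counts and medians without set tests. Some genes of the pathway and marker lists are not reported here and were left out of the lists' counts and sums. Named genes are the members, NOTCH4, DLL4, RBPJ, NRARP and the HES and HEY genes, the NOTCH2NL copies, and per list the 2 called genes with the smallest adjusted p. PSEN2, ATOH1, INSM1, BHLHE41, TCF3, TCF12, NEUROG2 and the cell type markers given singly were picked with their values in view. The alternative analyses used DESeq2, RLE, library totals, upper quartile, no mitochondrial genes, no filter, a minimum of 10 counts per library, protein-coding genes alone, the replicate block, each library left out, other fold limits, and other lengths. Canonical transcript lengths, and sums without division by length, were added after seeing the data.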

Additional observations from a re-analysis of the deposited data

How the results depend on the processing

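Over 15 alternative fits, 8 of the 10 members kept direction and call. The exceptions lie near 1.5-fold. NOTCH2 passed the limit with library totals (−0.59) and ranged from −0.60 to −0.49 with 1 library left out, passing without parental replicate 1, and DLL3 passed it with upper-quartile scaling (0.59), which shifted all genes by a median of 0.10. No member changed direction under any scaling. With 1 library left out, 6 to 7 members were past the threshold. Irrespective of fold, the counts were 10 for the members, 13074 for all genes, 4 for glycosylation, 7 for proteolysis, 10 for trafficking, 6 for the RBPJ complex and 12 for corepressors. With a minimum fold of 2 they were 5561 for all genes, 0 for proteolysis, 3 for corepressors and 5 for the bHLH list. The RBPJ complex had 2 calls with library totals and without a filter (SNW1 added), and 2 with upper-quartile scaling, with a minimum of 10 counts per library and with protein-coding genes alone (KAT2B added), and 1 to 2 with 1 library left out. Under the minimum of 10 counts per library, the other receptors and ligands had 0 calls, since DNER was not tested. The other targets had 3 to 5 calls with 1 library left out. Of 18 other named genes tested with all 6 libraries, the NOTCH2NL copies aside, 17 kept their call throughout. The exception was HES2 (−0.79 without parental replicate 3). HES5, not tested with all 6 libraries, and PSEN2, picked with its values in view, are outside these 18. Both differed in call with 1 library left out. NOTCH4, not past the threshold in any fit, changed sign (−0.37 to 0.0077 with 1 library left out, the highest without parental replicate 1).

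No pairing by replicate number was seen, since deviations of same-numbered libraries correlated at −0.065 to −0.00041 and 0 of 6 libraries correlated best with their own number. With so few libraries, this check cannot show that the numbers are unpaired. With the replicate number as a block, 6 members and 8212 genes were past the threshold, and no member's call changed. Differences in shares and in the HES6 to HES1 ratio kept their sign with each library left out (−20.6 to −19.5 points for NOTCH2, −11.8 to −10.3 points for the Jagged ligands and −2.63 to −2.42 for the ratio), with canonical lengths (−21.1 and −12.7 points for the shares) and without division by length (−22.2 and −7.61 points). HES5, HES7 and DLL4, with few counts per library, are limited by depth.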

Other observations

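NEUROG2, a proneural factor that HES proteins are known to repress, did not pass the filter on low counts. It had 0 counts in each parental library and 9, 1 and 5 in LNCaP-enzaR replicates 1 to 3. The gene was chosen after its values were seen, and the counts are close to the floor of 3 per library. Without a filter on low counts, NEUROG2 had an edgeR adjusted p of 0.0353 (log2 fold change 5.34, a value that depends on the prior count).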
